A study of Homo sapiens and Mus musculus with 10 samples.

Results

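The 8 genes described here mark myeloid cells, the macrophages, monocytes and granulocytes of the tissue, and the activation state of macrophages in tumour-bearing mouse skin. They were taken by gene identifier from the 78298 gene rows of the mouse expression table. Ptprc, Itgam, Adgre1 and Cd68 were read as a measure of how much myeloid RNA a library holds, and Mrc1, Cd163, Arg1 and Nos2 as a measure of macrophage state. Because Ptprc marks nearly all leukocytes, the content measure is not confined to myeloid cells. Expression was deposited as TPM, a transcript abundance scaled by length and by library total, so that levels can be compared between genes but sequencing depth is unknown.

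The series held 10 RNA-seq libraries, of which 4 came from mice and 6 from the human melanoma line A375, treated or untreated as given below. Each mouse library came from 1 piece of dorsal skin of 1 mouse. All 4 mice had received B16-F0-Luc melanoma cells, a mouse melanoma line that carries luciferase, in the skin on day 1. Imiquimod, which activates Toll-like receptor 7 and inflames the skin, was applied daily as 30 mg of cream on days 15 to 21, and skin was taken on day 25, so that no library shows skin without tumour or without imiquimod. The intended comparison was between K14CreCampf/f mice, in which the keratin 14 promoter drives Cre in keratinocytes and removes floxed Camp, the cathelicidin gene, and Campf/f mice without Cre, which the series text calls wild type. The labels contradict each other on which library is which. The libraries assigned to the columns named cKO are titled WT with the genotype Campf/f, and those assigned to the columns named WT are titled cko with the genotype K14CreCampf/f. Groups are therefore called the cKO columns (n = 2) and the WT columns (n = 2), and a difference between them has no known direction with respect to genotype. No source used here gives the ages of the mice. Markers of keratinocytes, melanoma cells and other leukocytes were not analysed here, because no table used here pairs mouse identifiers with names, so the labelled tissue was not checked against them.

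Ptprc (ENSMUSG00000026395) encodes CD45, the phosphatase on the surface of nearly all leukocytes. Itgam (ENSMUSG00000030786) encodes CD11b, an integrin chain of monocytes, macrophages, neutrophils and natural killer cells. Adgre1 (ENSMUSG00000004730) encodes the F4/80 antigen of mouse macrophages, and Cd68 (ENSMUSG00000018774) encodes a glycoprotein of late endosomes and lysosomes that is abundant in phagocytes. Mrc1 (ENSMUSG00000026712), the mannose receptor gene, and Cd163 (ENSMUSG00000008845), the gene of the scavenger receptor for haemoglobin bound to haptoglobin, are typical of resident and alternatively activated macrophages. Arg1 (ENSMUSG00000019987) and Nos2 (ENSMUSG00000020826) encode enzymes that use the same substrate, arginine. Arginase 1 turns it into ornithine and urea and is a classical mark of alternative activation in mice, while inducible nitric oxide synthase turns it into nitric oxide and citrulline and is a mark of classical activation. Both enzymes have also been found in keratinocytes of human psoriatic skin, so that neither is confined to macrophages.

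**Figure D1:**
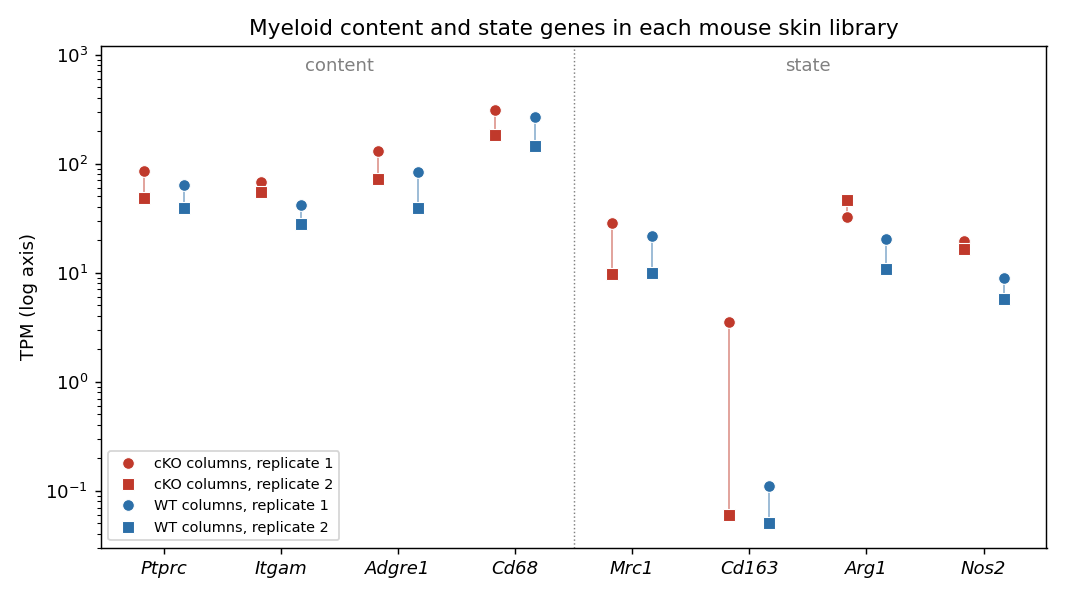
TPM of each gene (log axis) in the 2 libraries of the cKO columns (red) and the 2 libraries of the WT columns (blue), with circles for replicate 1 and squares for replicate 2. The cKO columns lie wholly above the WT columns for Itgam, Arg1 and Nos2, and the groups overlap for the other 5 genes.

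Cd68 was the most abundant of the 8 genes in every library and Cd163 the least abundant. Arg1, Nos2 and Itgam were higher in both cKO columns than in either WT column, by 2.55, 2.45 and 1.77 times as ratios of mean TPM. The other content genes and Mrc1 differed as much between the libraries of 1 group as between the groups. None of the 7 genes tested passed the threshold of an adjusted p under 0.05 (limma on log2(TPM + 1), Benjamini-Hochberg adjusted over 14537 genes), which 9 of all genes passed (0.0619%). With an unadjusted p under 0.05, the members were Itgam, Arg1 and Nos2, against 15.3% of all genes tested. Their groups did not overlap, with the cKO columns higher, which held for 35.4% of all genes tested and for 51.1% in either direction. Each of the 7 had a log2 change above 0, as did 64.8% of all genes, and their median was 0.74, against 0.09 over all genes tested.

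Among the content genes, Ptprc was 84.98 and 48.2 TPM in the cKO columns, against 63.11 and 39.06 TPM in the WT columns. The groups overlapped, with cKO replicate 1 highest and WT replicate 2 lowest. The log2 change was 0.36 ± 0.37 (SE, limma adjusted p = 0.654), and it was -0.04 without cKO replicate 1. In these bulk libraries, fewer cells of a type and less RNA per cell cannot be told apart.

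Adgre1 was 129.39 and 72.84 TPM in the cKO columns, against 83.78 and 39.54 TPM in the WT columns. The group means were 101 ± 40.0 TPM and 61.7 ± 31.3 TPM (SD, n = 2 each), and the lower cKO library lay below the higher WT library. Its log2 change was 0.74 ± 0.47 (SE, limma adjusted p = 0.488), and ranged from 0.21 without WT replicate 2 to 1.28 without WT replicate 1. Cd68 was 309.95 and 181.18 TPM in the cKO columns, against 270.34 and 145.05 TPM in the WT columns. It ranked among the most abundant genes, above 93.5% to 97.1% of the genes listed at 1 TPM or more in each library. Its log2 change was the smallest of the content genes, at 0.26 ± 0.41 (SE, limma adjusted p = 0.773), and turned to -0.13 without cKO replicate 1 and to -0.19 without WT replicate 2.

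Itgam differed from the other content genes in that its groups were apart. It was 68.17 and 55.13 TPM in the cKO columns, against 41.9 and 27.83 TPM in the WT columns. The lowest cKO library was 1.32 times the highest WT library. The log2 change was 0.83 ± 0.24 (SE, limma unadjusted p = 0.0236, adjusted p = 0.284). It ranged from 0.54 without WT replicate 2 to 1.11 without WT replicate 1. Since the groups do not overlap, leaving out a library could not turn its sign.

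**Figure D2:**
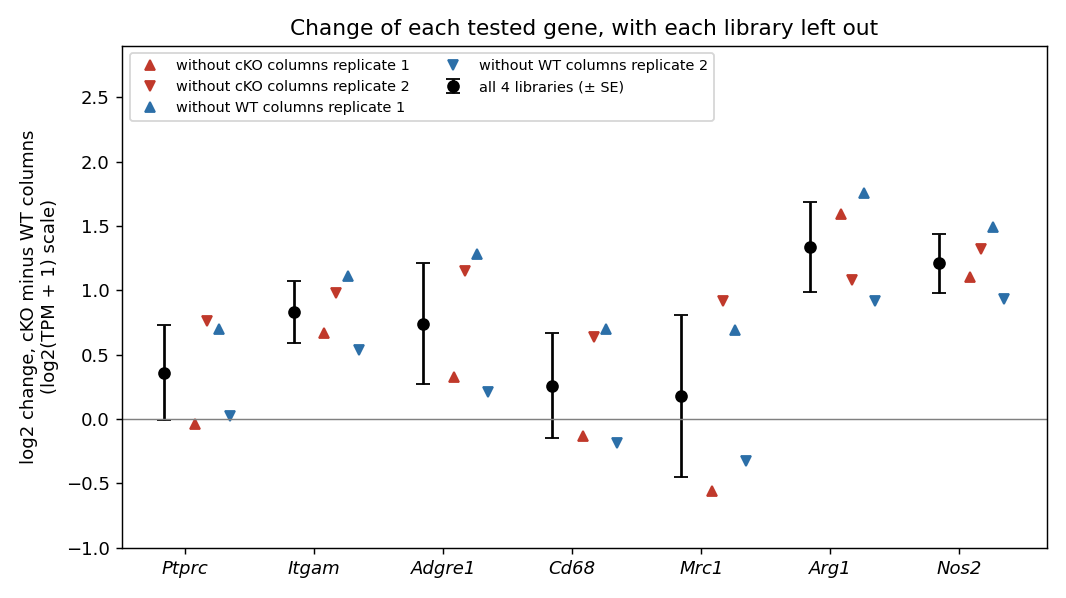
The log2 change of the 7 tested genes, cKO columns minus WT columns, on the log2(TPM + 1) scale, with all 4 libraries (black, bars give 1 SE) and with each library left out (triangles). For Itgam, Arg1 and Nos2 the groups do not overlap, so leaving out a library could not turn the sign. Adgre1 stays above 0, whereas Ptprc, Cd68 and Mrc1 cross 0 when cKO replicate 1 is left out.

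Ratios between content genes, taken in TPM, show how far their proportions held across libraries. The ratio of Cd68 to Ptprc was 3.65 and 3.76 in the cKO columns, against 4.28 and 3.71 in the WT columns, a narrow range beside that of either gene alone. The ratio of Adgre1 to Ptprc was 1.52 and 1.51 in the cKO columns, against 1.33 and 1.01 in the WT columns. The ratio of Cd68 to Adgre1 was 2.40 and 2.49 in the cKO columns, against 3.23 and 3.67 in the WT columns. The groups did not overlap for these ratios of Adgre1 to Ptprc and of Cd68 to Adgre1, and there was less Cd68 for each unit of Adgre1 in the cKO columns. The ratio of Itgam to Adgre1 was 0.527 and 0.757 in the cKO columns, against 0.500 and 0.704 in the WT columns, and the groups overlapped. The ratio of Itgam to Ptprc was 0.802 and 1.14 in the cKO columns, against 0.664 and 0.712 in the WT columns, without overlap. In all, 15 ratios were computed, and with 2 libraries a group no exact test of them can give a two-sided p below 0.333. No share of separated groups was computed over ratios of other genes. In TPM alone, the groups were apart in either direction for 51.1% of all genes tested.

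Much of the variation lay between libraries of the same group. On the log2(TPM + 1) scale, Ptprc, Adgre1, Cd68 and Mrc1 differed by 0.77 to 1.48 between the cKO columns and by 0.68 to 1.06 between the WT columns. The median absolute difference over all genes tested was 0.18 between the cKO columns and 0.15 between the WT columns. For Mrc1, 2.46% of genes differed more between the cKO columns and 2.33% differed more between the WT columns. Nos2 differed by 0.22 between the cKO columns, where 43.0% of genes differed more, and by 0.56 between the WT columns, where 9.92% did. Replicate 1 lay above replicate 2 in both groups for 6 of the 7 tested genes, against 34.9% of all genes. Arg1 was the exception, with its highest level in cKO replicate 2.

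Among the state genes, Mrc1 was 28.74 and 9.67 TPM in the cKO columns, against 21.44 and 10.01 TPM in the WT columns. The cKO columns held both the highest and the lowest value. The log2 change was 0.18 ± 0.63 (SE, limma adjusted p = 0.903), and it was -0.56 without cKO replicate 1 and -0.33 without WT replicate 2.

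Cd163 was 3.49 TPM in cKO replicate 1 and 0.06 TPM in cKO replicate 2, against 0.11 and 0.05 TPM in the WT columns. It was near 0 in 3 libraries and measured in 1, and it did not reach 1 TPM in 2 libraries, the condition for testing. With no filter on low values, its log2 change was 1.01 ± 0.77 (SE, limma adjusted p = 0.669), which rests on cKO replicate 1. That library also lay apart over all genes tested, with a score of 53.5 on the leading principal component (58.5% of the variance). On this component cKO replicate 2 scored 3.7 and the WT columns -20.4 and -36.8, so both cKO columns lay above both WT columns. The library of cKO replicate 1 listed 14970 genes at 1 TPM or above, and the other libraries 14044 to 14321. The table lists 57 genes at 3 TPM or more in cKO replicate 1 and below 0.2 TPM in the other libraries. The same pattern held for 11 genes in cKO replicate 2, 17 in WT replicate 1 and 61 in WT replicate 2. These limits were set after the values of Cd163 were seen. The part of this library's other differences in the level of Cd163 was not tested.

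Arg1 was 32.56 and 46.61 TPM in the cKO columns, against 20.18 and 10.83 TPM in the WT columns. The group means were 39.6 ± 9.93 TPM and 15.5 ± 6.61 TPM (SD, n = 2 each), and the lowest cKO library was 1.61 times the highest WT library. The log2 change of 1.34 ± 0.35 (SE, limma unadjusted p = 0.0172, adjusted p = 0.273) was exceeded by 2.35% of all genes tested, and it ranged from 0.92 without WT replicate 2 to 1.76 without WT replicate 1.

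Nos2 was 19.44 and 16.61 TPM in the cKO columns, against 8.96 and 5.75 TPM in the WT columns. The group means were 18.0 ± 2.00 TPM and 7.36 ± 2.27 TPM (SD, n = 2 each), and the lowest cKO library was 1.85 times the highest WT library, the widest gap of the 8 genes. The log2 change of 1.21 ± 0.23 (SE, limma unadjusted p = 0.00553, adjusted p = 0.240) was exceeded by 2.84% of all genes tested, and it ranged from 0.93 without WT replicate 2 to 1.49 without WT replicate 1. Both enzymes of arginine use were thus higher in the cKO columns, and their balance showed no separation. The ratio of Arg1 to Nos2 in TPM was 1.67 and 2.81 in the cKO columns, against 2.25 and 1.88 in the WT columns. The WT values lay between the cKO values.

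**Figure D3:**
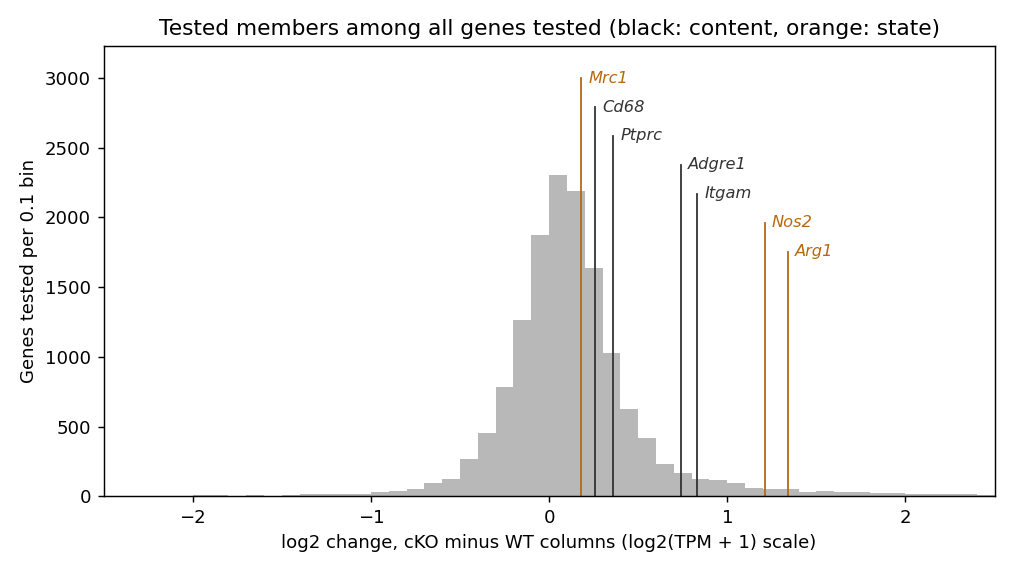
Distribution of the log2 change, cKO columns minus WT columns, over the 14537 genes tested (grey bars, genes per bin of 0.1), with vertical lines at the 7 tested members. Arg1 at 1.34 and Nos2 at 1.21 lie in the upper tail, while Mrc1 at 0.18 lies near the middle, where 36.7% of genes had a larger change.

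To view state apart from content, the level of each state gene was set against the mean log2(TPM + 1) of Ptprc, Itgam, Adgre1 and Cd68. That content measure was 6.96 and 6.29 in the cKO columns, against 6.48 and 5.68 in the WT columns. The groups overlapped, and the mean difference was 0.55. Relative to it, Nos2 was -2.61 and -2.15 in the cKO columns, against -3.16 and -2.92 in the WT columns, a difference of 0.66. Arg1 was -1.89 and -0.71 in the cKO columns, against -2.07 and -2.11 in the WT columns, a difference of 0.79. Both cKO columns lay above both WT columns for these 2 genes, by a narrow margin for Arg1 in cKO replicate 1. In TPM alone, both cKO columns were higher for 35.4% of all genes tested, and no such share was computed relative to content. Without cKO replicate 2 the difference of Arg1 was 0.20 and that of Nos2 was 0.43. The exact permutation test gave p = 0.333 for each (two-sided), the smallest value it allows, and 0.667 after adjustment over the 4 state genes.

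Mrc1 relative to content was -2.07 and -2.87 in the cKO columns, against -1.99 and -2.22 in the WT columns. The difference was -0.37 (exact permutation p = 0.667) and was 0.04 without cKO replicate 2. Cd163 relative to content was -4.79 and -6.20 in the cKO columns, against -6.33 and -5.61 in the WT columns. Outside cKO replicate 1, Cd163 was at 0.11 TPM or less. There its relative value is nearly the content measure with its sign turned, and says little about Cd163 itself. The difference of Cd163 between the groups was 0.47 (exact permutation p = 0.667). It turned to -0.24 without cKO replicate 1 and to -0.14 with a pseudocount of 5, and was 1.54 with a pseudocount of 0.1.

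**Figure D4:**
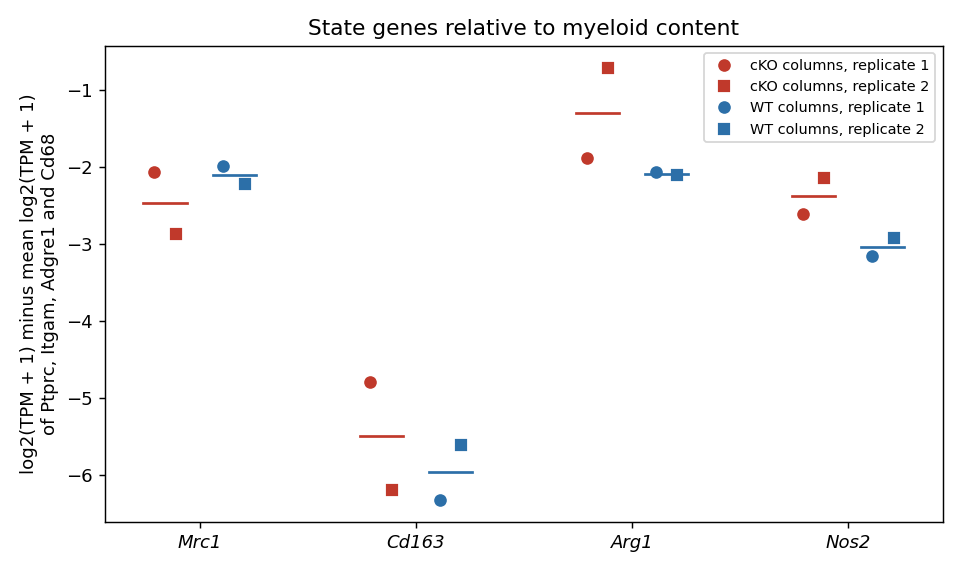
Each state gene as log2(TPM + 1) minus the mean log2(TPM + 1) of Ptprc, Itgam, Adgre1 and Cd68, in the cKO columns (red) and the WT columns (blue), with horizontal lines at group means. Arg1 and Nos2 lie above the WT columns in both cKO columns, and Mrc1 and Cd163 overlap.

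Ratios to Adgre1 and to Ptprc kept the groups apart for Nos2, though only narrowly against Adgre1. For Arg1 they did so against Ptprc only. How often ratios of other genes keep the groups apart was not computed. The ratio of Nos2 to Adgre1 was 0.150 and 0.228 in the cKO columns, against 0.107 and 0.145 in the WT columns, and that of Nos2 to Ptprc was 0.229 and 0.345 in the cKO columns, against 0.142 and 0.147 in the WT columns. The ratio of Arg1 to Ptprc was 0.383 and 0.967 in the cKO columns, against 0.320 and 0.277 in the WT columns. The ratio of Arg1 to Adgre1 was 0.252 and 0.640 in the cKO columns, against 0.241 and 0.274 in the WT columns. The groups overlapped for Arg1 to Adgre1, since only cKO replicate 2 had much more Arg1 for its Adgre1. The ratio of Mrc1 to Adgre1 was 0.222 and 0.133 in the cKO columns, against 0.256 and 0.253 in the WT columns, and both cKO columns lay below both WT columns. Against Ptprc the groups overlapped, with a ratio of Mrc1 to Ptprc of 0.338 and 0.201 in the cKO columns, against 0.340 and 0.256 in the WT columns. The ratio of Arg1 to Mrc1, both marks of alternative activation in mice, was 1.13 and 4.82 in the cKO columns, against 0.941 and 1.08 in the WT columns. That of Nos2 to Mrc1 was 0.676 and 1.72 in the cKO columns, against 0.418 and 0.574 in the WT columns. Neither of these ratios to Mrc1 overlapped between the groups.

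The patterns over the 4 libraries were compared by the root mean square distance between centred log2(TPM + 1) values, as a description. The closest of the 7 tested genes were Ptprc and Cd68, at 0.09, followed by Itgam and Nos2, at 0.20. The most distant were Mrc1 and Arg1, at 0.91. With Adgre1 as the centre, Ptprc lay at 0.24, Cd68 at 0.25 and Itgam at 0.26, and 1.54% to 2.03% of the 10613 other genes with a mean of at least 5 TPM lay nearer than these. For Arg1, at 0.56, 40.2% lay nearer. The 5 genes nearest to Adgre1, at 0.025 to 0.069, have no name in the tables used here.

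The A375 libraries give the level of the human counterparts in a culture of melanoma cells without leukocytes. By their labels, the cells were either treated with LL-37 or kept as untreated controls. The dose was the same in each treated library, and the treatment time was the same in both groups. The human and mouse tables were normalized separately, and no test was made between them. CD68 was 36.04, 40.32 and 20.02 TPM with LL-37 and 33.79, 34.32 and 40.65 TPM in untreated cells. ADGRE1 was 8.05, 7.14 and 7.11 TPM with LL-37 and 7.42, 7.50 and 7.24 TPM in untreated cells. PTPRC, MRC1 and NOS2 were listed at 0.07 TPM or less in each of the 6 libraries, and ITGAM, CD163 and ARG1 at 0 in all 6. CD68 and ADGRE1 were thus measured in the melanoma line, while the other 6 genes were at or near 0. The part of the B16-F0-Luc cells in the levels of Cd68 and Adgre1 in the skin was not tested.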

How the data were processed

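The authors deposited TPM, in 1 table for each species with 1 column per library and values to 2 decimals, per the file headers. Stranded poly(A) libraries were made per the labels' protocols, which name cultured keratinocytes as the starting material for all samples. The builds GRCh38 and GRCm39 are listed in the submitters' processing notes. No source used here names the aligner, the quantification tool or the annotation. Because TPM keep no depth, no counting interval can be given, and a change in a few abundant genes moves the values of the others.

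Columns were assigned to libraries by the description of each sample. Genes reaching 1 TPM in 2 or more mouse libraries were tested as log2(TPM + 1) with limma 3.58.1 in R 4.3.3 (intensity trend, two-sided, Benjamini-Hochberg adjustment over 14537 genes). A fold on this scale understates the change of low genes. State genes relative to content were compared with an exact permutation test over the 4 libraries. The fit was run on simulated data with planted changes and independent noise in each gene. That run does not show how the fit behaves where many genes of a library differ together. All 8 genes were named by rule. The members, lists and tests were chosen with earlier results of these data known. The 14 lists of other mouse genes (146 symbols) and genome positions were not used here, because the tables used here pair no mouse identifier with a name. Human counterparts were matched by symbol. Alternatives were other pseudocounts, filters, scalings and content measures, a replicate block, no intensity trend, and each library left out.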

Additional observations from a re-analysis of the deposited data

How the results depend on the processing

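The number of genes past the threshold, 9 of 14537, was 3 with a pseudocount of 0.1, 3 with a filter of 5 TPM, 12 with median-of-ratios scaling, 22 with quantile normalization and 17 with no intensity trend. It was 0 with a pseudocount of 5 (2160 genes at an unadjusted p under 0.05 in limma) and 0 with no filter (2869 genes). It ranged from 0 to 55 when each library was left out, with 55 without cKO replicate 2 and 0 without cKO replicate 1 (1489 genes at an unadjusted p under 0.05), WT replicate 1 (1330) or WT replicate 2 (778). In these fits a lone library is assumed to vary like the other group. No member passed under any of these settings. With the replicate block 6 genes passed, none of them a member. An unadjusted p under 0.05 in limma was then given to 3300 genes, against 2217 in the main fit. Those 3300 held every tested member but Mrc1 (limma unadjusted p = 0.305). The SE of Adgre1 was 0.09 with the block, against 0.47 without it, while that of Arg1 was 0.37, against 0.35. The deviations of same-numbered libraries correlated at 0.224 over genes, but with 2 pairs and no label that ties them, the numbers were not taken as pairs.

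Itgam, Adgre1, Arg1 and Nos2 kept a positive log2 change under all 12 alternatives. In the main fit 64.8% of all genes tested had a positive change, and how many kept it was not computed. For Itgam, Arg1 and Nos2, whose groups did not overlap, leaving out a library could not turn the sign. Leaving out each library gave -0.04 to 0.76 for Ptprc, -0.19 to 0.70 for Cd68 and -0.56 to 0.92 for Mrc1, and the cause of these reversals was not tested. With quantile normalization the median over all genes tested was -0.039, against 0.093 with TPM as deposited, and Nos2 was then 1.05 and Arg1 1.22. Relative to content, the difference with each library left out was 0.20 to 1.38 for Arg1 and 0.43 to 0.89 for Nos2. Their relative values did not overlap between the groups, so neither sign could turn in this way. Mrc1 ranged from -0.77 to 0.04 and Cd163 from -0.24 to 1.17. The difference of Cd163 was -0.14 at a pseudocount of 5 and 1.54 at a pseudocount of 0.1. TPM give no depth, so what depth limits cannot be stated. With 2 libraries a group, the exact test of a single value cannot give a p below 0.333.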
